A study of Rattus norvegicus with 6 samples.

Results

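Chemokines and their receptors were followed in regenerated rat sciatic nerve. Members were the genes whose symbol begins with Ccl, Cxcl, Ccr, Cxcr or Ackr and a digit, or is Cx3cl1, Cx3cr1, Xcl1 or Xcr1, and whose counts summed to at least 30 over the 6 libraries. Of 55 such symbols among the 23091 genes measured, 48 reached that sum, of which 28 encode ligands, 16 encode receptors and 4 encode atypical receptors. The 42 members that passed the filter on low counts were tested. Not tested were Cxcl2, Cxcl3, Cxcl6, Ccl17, Xcl1 and Ccr9, and the 7 symbols with sums under 30 were Ccl1, Ccl25, Ccl26, Ccl28, Cxcl17, Ccr4 and Ccr8.

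Chemokines are small secreted proteins that direct the migration of leukocytes along gradients held on endothelium and matrix. They act through receptors coupled to inhibitory G proteins, while the atypical receptors bind and remove chemokines without G protein signalling. In an injured peripheral nerve, macrophages, neutrophils and lymphocytes enter with the help of such signals, Ccl2 being the best known for monocytes, and macrophages then clear myelin debris and accompany the growing bridge.

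The nerves came from wild-type male Sprague-Dawley (SD) rats with a sciatic nerve defect. In 3 libraries, called implant 1 to implant 3, the defect had received GDNF-Gel/HA-Mg, a conduit material combined with glial cell line-derived neurotrophic factor, and in the 3 NC libraries the wound had been closed with no implant. Because NC had no conduit at all, the gel, the HA, the magnesium and the factor cannot be told apart. The labels give no time after surgery and do not say whether libraries of a group came from separate animals, and the p-values therefore describe spread between these libraries, which may be technical.

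Libraries held 15897850 to 18491379 counts, of which the 48 members took between 0.0947% and 0.193%. All 8 Schwann cell markers were present, as a nerve label requires, but their summed level varied widely, at 12250, 1558 and 14790 CPM in the implant libraries and 1848, 28620 and 2449 CPM in the NC libraries. Haemoglobin transcripts took 8.08%, 12.9% and 14.8% of the counts in the implant libraries, against 1.19%, 1.02% and 25.2% in the NC libraries. Blood content was thus highest in NC 3 and far lower in NC 1 and NC 2 than in every other library. NC 3 stood apart in adipocyte markers, with 7356 CPM (counts scaled to the TMM-adjusted library size) summed over 5 genes, where the other 5 libraries held 1055 to 2481 CPM. Skeletal muscle markers, 6 genes, summed to 77.85, 1502 and 7602 CPM in the implant libraries and 26.5, 329 and 1237 CPM in the NC libraries, highest in implant 3. Results that rest on NC 3 are given with and without it. Values are listed in the order of libraries 1, 2 and 3 of each group, and fold changes compare 3 libraries with 3.

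No chemokine or receptor separated the implant group from NC beyond the spread between libraries. By edgeR's quasi-likelihood test with Benjamini-Hochberg adjustment over 13999 genes, 0 of the 42 tested members were called at an adjusted p under 0.05, where 0% of all genes were called. DESeq2, at an adjusted p under 0.05, called 0 members, against 0.0786% of all genes. At an unadjusted p under 0.05 edgeR found 0 members, against 1.72% of all genes, and DESeq2 found 1, Cxcr3, against 2.34%. The smallest unadjusted edgeR p of a member was 0.0675, for Cxcr3, and every member had an adjusted edgeR p of 1. Log2 fold changes, implant over NC, were positive for 27 of the 42 members (64.3%, against 47.0% of all genes), with a median of 0.17, against -0.013 over all genes. Single libraries moved that median, to 0.43 without NC 3, 0.34 without implant 3, 0.056 without implant 2 and 0.060 without NC 2, with 33, 29, 22 and 23 members positive. Groups did not overlap for 1 of the 42 members, Ccl12, against 5.69% of all genes.

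Levels of the members varied widely between libraries of the same group. The pooled within-group SD of log2 CPM had a median of 0.93 over the members, against 0.29 over all tested genes. It was also 0.29 over the 11755 genes between the 5th and 95th percentile of the members' mean log CPM. That range holds most tested genes and is not matched to the members' own levels, so the part of low counts in their spread was not tested. The SD exceeded 1 for 16 of the 42 members (38.1%), against 9.07% of all genes, and for 14 of the 23 ligands but 2 of the 19 receptors. Between the highest and the lowest library the median member spanned 4.94-fold (with 2 counts added to each value), the median gene 1.67-fold. The 95% interval of the fold change excluded a 4-fold difference in either direction for 19 of the 42 members, against 88.3% of all genes. For the other members the interval still held a difference of that size. Since these are whole pieces of tissue, fewer cells of a type and less RNA per cell cannot be told apart in any value below.

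**Figure D1:**
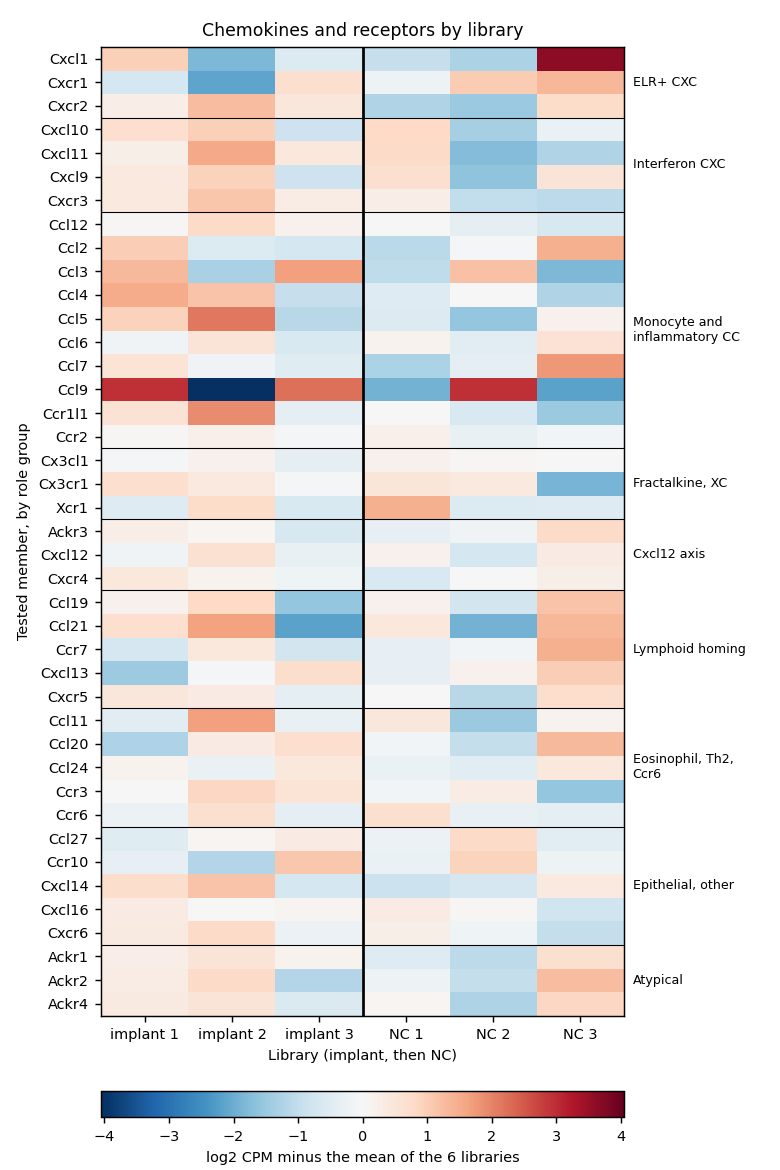
Log2 CPM of 41 of the 42 tested members in each library (columns, implant 1 to 3, then NC 1 to 3), relative to the mean of the 6 libraries, with rows by role group; red is above and blue below that mean. Ccl9 alternates from red to blue within both groups, and the upper right corner shows Cxcl1 high in NC 3.

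The libraries at the extremes were the same for many members. Implant 2 was the highest library for 15 of the 42 members (35.7%, against 15.0% of all genes) and NC 3 for another 15 (35.7%, against 25.1%). NC 2 was the lowest library for 13 members (31.0%, against 21.8%) and the highest for 1 (2.38%, against 25.3%). NC 3 was also the lowest library for 10 members (23.8%, against 24.3%). The members are described below by role, and levels are compared between libraries rather than between genes, since CPM is not scaled to transcript length.

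The CXC ligands induced by interferon, Cxcl9, Cxcl10 and Cxcl11, share the receptor Cxcr3 of activated T and NK cells, and are neighbours in the genome. All were highest in implant 2 and lowest in NC 2. Their promoters are shown because the ligands shared their highest and lowest library, each as 250 bases before to 50 after the start of transcription (RefSeq, GRCr8), at chr14:16006916-16007215, plus strand, chr14:15988816-15989115, plus strand and chr14:15973478-15973777, plus strand. Capitals mark matches to 4 motifs searched on both strands, namely the interferon-stimulated response element, the gamma-activated site (TTCNNNGAA), the NF-kB consensus and the AP-1 site (TGANTCA).
Cxcl9: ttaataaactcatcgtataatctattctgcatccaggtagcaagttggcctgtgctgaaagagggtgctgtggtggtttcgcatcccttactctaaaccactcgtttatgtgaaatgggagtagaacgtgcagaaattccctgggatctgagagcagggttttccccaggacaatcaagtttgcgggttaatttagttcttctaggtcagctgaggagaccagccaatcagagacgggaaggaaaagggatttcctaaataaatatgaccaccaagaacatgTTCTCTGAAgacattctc
Cxcl10: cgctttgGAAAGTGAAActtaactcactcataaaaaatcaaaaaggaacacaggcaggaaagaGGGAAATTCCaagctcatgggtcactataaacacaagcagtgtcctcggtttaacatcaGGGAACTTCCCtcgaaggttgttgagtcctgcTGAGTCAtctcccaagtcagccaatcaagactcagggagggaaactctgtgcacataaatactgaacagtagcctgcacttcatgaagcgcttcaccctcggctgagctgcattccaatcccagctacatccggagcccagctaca
Cxcl11: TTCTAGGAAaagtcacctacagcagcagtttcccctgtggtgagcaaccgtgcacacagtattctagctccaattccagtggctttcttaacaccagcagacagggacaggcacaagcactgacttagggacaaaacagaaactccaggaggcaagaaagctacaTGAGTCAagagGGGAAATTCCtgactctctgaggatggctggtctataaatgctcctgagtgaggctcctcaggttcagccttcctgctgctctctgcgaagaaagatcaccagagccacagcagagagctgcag

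Counting the base before the start as -1, Cxcl10 held an interferon-stimulated response element at -243, NF-kB matches at -187 and -128, the second overlapping its match on the other strand, and an AP-1 site at -96. Cxcl11 held a gamma-activated site at -250, an AP-1 site at -85 and an NF-kB match at -74, and Cxcl9 a gamma-activated site at 33. Among the 33469 promoters of that length in the table, the interferon-stimulated response element was found in 3.92%, the gamma-activated site in 8.87%, the NF-kB consensus in 7.51% and the AP-1 site in 7.33%. Of the 36 members with a promoter in the table, 2, 6, 9 and 7 held them, in the same order. A match describes letters in this window and shows no binding.

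Cxcl9 stood at 56.02, 81.6 and 23.8 CPM in the implant libraries and at 67.5, 13.9 and 61.95 CPM in the NC libraries. Cxcl10 stood at 9.37, 11.5 and 3.18 CPM in the implant libraries and at 10.2, 2.196 and 4.699 CPM in the NC libraries, and Cxcl11, much lower in counts, stood at 1.46, 3.804 and 1.71 CPM in the implant libraries and at 2.23, 0.289 and 0.434 CPM in the NC libraries. In each of the ligands NC 1 lay above implant 3, so the groups overlapped. Their log2 fold changes were 0.17 ± 0.68 (SE), 0.49 ± 0.68 and 1.22 ± 0.85. The direction of Cxcl9 depended on single libraries, at -0.27 without implant 2 and -0.27 without NC 2. With a library left out, that of Cxcl10 ran from 0.097 without NC 2 to 1.23 without NC 1, and that of Cxcl11 from 0.66 without implant 2 to 2.69 without NC 1. The receptor Cxcr3 stood at 3.22, 5.43 and 3.01 CPM in the implant libraries and at 3.01, 1.16 and 1.08 CPM in the NC libraries. Implant 2 was again highest, and NC 1 (3.01) lay level with implant 3 (3.01), so the groups met there without separating, with a log2 fold change of 1.14 ± 0.51 (interval -0.11 to 2.39). Its unadjusted p was 0.0675 with edgeR and 0.0493 with DESeq2, and its adjusted p was 1 with edgeR. Its log2 fold change ran from 0.82 without implant 2 to 1.805 without NC 1.

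Markers of T and NK cells, the cells that carry Cxcr3, summed over 8 genes to 34.2, 53.96 and 19.6 CPM in the implant libraries and 25.02, 14.3 and 36.1 CPM in the NC libraries. Like the 3 ligands, this sum was highest in implant 2 and lowest in NC 2. Cxcr3 was also highest in implant 2 but lowest in NC 3 (1.08 CPM, against 1.16 CPM in NC 2). In NC 3 the marker sum lay above every library but implant 2. The part of these cells in the values of Cxcr3 was not tested. Interferon gamma itself (Ifng) had 2 counts in all 6 libraries together. Irf7, an interferon-induced regulator, stood at 135, 290.3 and 83.4 CPM in the implant libraries and at 184, 38.5 and 276 CPM in the NC libraries. It shared the extremes of the ligands, with implant 2 highest and NC 2 lowest.

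Ccl9 varied more between libraries than any other member. In mouse this CC ligand, near relative of Ccl6, attracts myeloid cells through Ccr1, which was not analysed here. It stood at 55.7, 0.326 and 33.4 CPM in the implant libraries and at 1.82, 55.3 and 1.45 CPM in the NC libraries, a span of 128-fold. Implant 1, implant 3 and NC 2 held it at 33.4 CPM or more and the other 3 libraries at 1.82 CPM or less, so each group held both levels. The log2 fold change of 0.61 ± 1.79 had an interval of -3.76 to 4.97, and it was 1.21 without implant 2, 4.17 without NC 2 and -0.19 without implant 1. Its promoter, at chr10:68868828-68869127, minus strand, follows as that of the member with the widest span.
Ccl9: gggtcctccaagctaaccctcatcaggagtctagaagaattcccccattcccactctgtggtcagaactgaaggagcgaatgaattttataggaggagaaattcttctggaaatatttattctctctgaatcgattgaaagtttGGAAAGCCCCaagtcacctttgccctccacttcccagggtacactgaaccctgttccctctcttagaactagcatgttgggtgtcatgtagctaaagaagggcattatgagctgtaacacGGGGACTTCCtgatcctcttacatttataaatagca

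NF-kB matches stood at -106 and at 15 in that window, and none of the other motifs was found there. Ccl3, a ligand of Ccr1 from the same chemokine cluster, stood at 4.97, 0.706 and 6.31 CPM in the implant libraries and at 0.883, 4.51 and 0.434 CPM in the NC libraries. Ccl3 was thus high in the same 3 libraries, and its log2 fold change of 1.03 ± 1.07 ran from 0.54 without implant 3 to 2.56 without NC 2. Cxcl3, too sparse to be tested, had 47, 0 and 52 counts in the implant libraries and 1, 4 and 1 in the NC libraries, where a count of 0 allows up to 0.163 CPM in implant 2. It was high in implant 1 and implant 3 but had only 4 counts in NC 2. The libraries high in Ccl9 and Ccl3 were those richest in Schwann cell markers (12250, 14790 and 28620 CPM in implant 1, implant 3 and NC 2, against 1558 to 2449 CPM in the rest), and the part of those cells in these values was not tested.

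**Figure D2:**
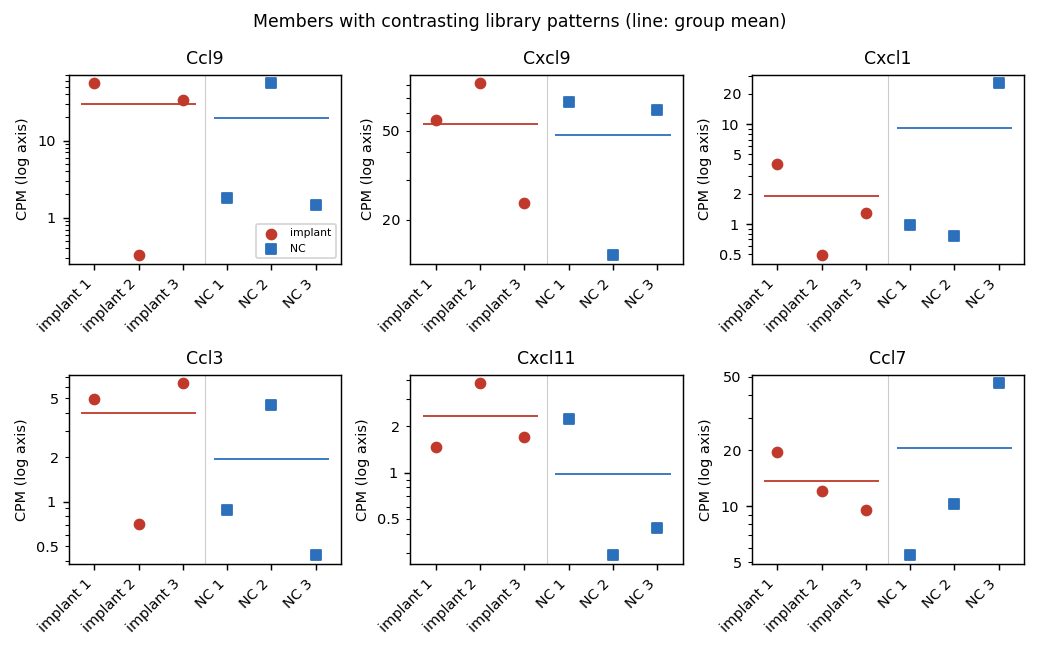
CPM on a log axis of 6 members in each library, implant as circles and NC as squares, with the group mean as a line. Ccl9 and Ccl3 (left) are high in implant 1, implant 3 and NC 2, Cxcl9 and Cxcl11 (middle) are highest in implant 2 and lowest in NC 2, and Cxcl1 and Ccl7 (right) are highest in NC 3.

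Ccl4, Ccl5 and Ccl6, also CC ligands, did not share that order of libraries. Ccl4, a macrophage inflammatory protein, stood at 3.63, 2.88 and 0.5896 CPM in the implant libraries and at 0.831, 1.21 and 0.434 CPM in the NC libraries. Ccl5, which attracts T cells and monocytes through Ccr1 and Ccr3, among others, stood at 2.81, 6.63 and 0.5896 CPM in the implant libraries and at 0.934, 0.405 and 1.59 CPM in the NC libraries. Both were high in implant 1 and implant 2 and not in implant 3, which lay within the range of NC. Their log2 fold changes were 1.501 ± 0.74 and 1.78 ± 0.92, with unadjusted edgeR p of 0.0887 and 0.101. With a library left out, Ccl4 ran from 1.07 without implant 1 to 1.96 without implant 3, and Ccl5 from 0.80 without implant 2 to 2.29 without NC 3, and neither was called. Ccl6 stood at 58.1, 92.4 and 41.8 CPM in the implant libraries and at 72.1, 46.99 and 95.9 CPM in the NC libraries, with no order by group and a log2 fold change of -0.16 ± 0.37.

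The monocyte chemoattractants Ccl2 and Ccl7 had the same libraries at their extremes. Ccl2, the main ligand of Ccr2, stood at 40.9, 13.9 and 12.4 CPM in the implant libraries and at 9.55, 19.6 and 55.2 CPM in the NC libraries. Ccl7, which also acts on Ccr2, stood at 19.6, 12.1 and 9.61 CPM in the implant libraries and at 5.45, 10.3 and 45.9 CPM in the NC libraries. Both were highest in NC 3 and lowest in NC 1, with implant 1 second. Their log2 fold changes were -0.33 ± 0.75 and -0.57 ± 0.79, and without NC 3 these were 0.62 and 0.81. Ccl12, a further Ccr2 ligand in mouse, was the member whose groups did not overlap, and it stood at 0.585, 1.03 and 0.649 CPM in the implant libraries and at 0.571, 0.405 and 0.289 CPM in the NC libraries. It rested on 4 to 19 counts a library, with a log2 fold change of 0.82 ± 0.49 and an unadjusted edgeR p of 0.144, and that fold change ran from 0.53 without implant 2 to 1.12 without NC 1.

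Ccr2, the receptor of Ccl2 and Ccl7 that marks inflammatory monocytes, stood at 29.7, 33.5 and 27.6 CPM in the implant libraries and at 32.9, 23.4 and 26.6 CPM in the NC libraries. The highest library exceeded the lowest 1.43-fold, and the log2 fold change was 0.13 ± 0.16 (interval -0.27 to 0.53). Its deposited counts are fractional in 5 libraries, so part of this level is uncertain. Ccr1l1, related in sequence to Ccr1, stood at 0.8195, 2.23 and 0.354 CPM in the implant libraries and at 0.519, 0.289 and 0.0723 CPM in the NC libraries, on 1 to 41 counts a library, with a log2 fold change of 1.89 ± 0.91 (unadjusted edgeR p 0.0816). That fold ran from 0.94 without implant 2 to 2.58 without NC 1, and it was 3.03 with haemoglobin level as a covariate. Monocyte and macrophage markers summed to 2405, 1973 and 2925 CPM in the implant libraries and 1607, 2006 and 2128 CPM in the NC libraries. Lyz2 made up 44.7% to 69.1% of that sum, and the other 9 genes summed to 744, 863 and 1015 CPM in the implant libraries and 740.3, 676 and 1176 CPM in the NC libraries. The order of libraries thus differed with and without Lyz2, and the part of these cells in the values was not tested.

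The CXC ligands with the ELR motif draw neutrophils through Cxcr2. Cxcl1 stood at 3.98, 0.489 and 1.297 CPM in the implant libraries and at 0.986, 0.751 and 25.7 CPM in the NC libraries. It was highest in NC 3, the library with the most haemoglobin, and every other library lay at 3.98 CPM or less. Its log2 fold change of -2.24 ± 1.52 rested on that library, being 1.13 without it, and DESeq2 gave no p for this gene. Cxcl2, not tested, had 11, 4 and 10 counts in the implant libraries and 3, 0 and 39 in the NC libraries, also highest in NC 3. Cxcl6, not tested, had 18, 10 and 8 counts in the implant libraries and 20, 9 and 7 in the NC libraries, with no library apart. The promoters of Cxcl1, at chr14:17479272-17479571, minus strand, and Ccl7, at chr10:67513845-67514144, plus strand, are shown as those of the members led by NC 3, with the same motifs in capitals.
Cxcl1: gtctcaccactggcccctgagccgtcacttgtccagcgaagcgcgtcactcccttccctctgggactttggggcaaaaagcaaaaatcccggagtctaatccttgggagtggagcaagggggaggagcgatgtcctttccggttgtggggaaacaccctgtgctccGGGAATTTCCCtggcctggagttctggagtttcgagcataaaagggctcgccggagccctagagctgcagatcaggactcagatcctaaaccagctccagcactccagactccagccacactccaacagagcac
Ccl7: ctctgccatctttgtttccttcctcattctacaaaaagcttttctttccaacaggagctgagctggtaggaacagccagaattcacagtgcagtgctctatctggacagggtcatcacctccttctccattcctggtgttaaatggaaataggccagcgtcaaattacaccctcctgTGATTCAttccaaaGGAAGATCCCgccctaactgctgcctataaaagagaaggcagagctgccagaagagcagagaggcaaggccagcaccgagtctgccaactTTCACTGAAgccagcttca

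In Cxcl1 the NF-kB consensus matched at -84 and, on the other strand, at -83. In Ccl7 an AP-1 site stood at -73, an NF-kB match at -59 and a gamma-activated site at 32. Cxcl6, which had no library apart, also held NF-kB matches, at -88 and, on the other strand, at -87. The cytokine Il6 stood at 1.05, 1.68 and 0.531 CPM in the implant libraries and at 0.727, 0.347 and 11.7 CPM in the NC libraries. It too was highest in NC 3, with a log2 fold change of -1.95 ± 1.33 that was 1.002 without that library. With haemoglobin level as a covariate the log2 fold changes of Cxcl1 and Ccl7 were -1.900 and -0.83. The part of adipose tissue, also highest in NC 3, was not tested.

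Cxcr2, the neutrophil receptor, stood at 13.5, 27.1 and 15.7 CPM in the implant libraries and at 4.78, 3.87 and 18.9 CPM in the NC libraries. NC 1 and NC 2 lay below all other libraries, while NC 3 lay above implant 1 and implant 3. The log2 fold change was 1.03 ± 0.67, and 2.11 without NC 3, at an unadjusted edgeR p of 0.00227 and an adjusted p of 0.745. The 9 neutrophil markers summed to 251, 361 and 317 CPM in the implant libraries and 75.7, 61.4 and 300.2 CPM in the NC libraries, in which NC 1 and NC 2 were also lowest. Haemoglobin was lowest in the same 2 libraries, and with its level as a covariate the log2 fold change of Cxcr2 was 0.60. Cxcr1 stood at 0.176, 0 and 0.649 CPM in the implant libraries and at 0.311, 0.867 and 1.08 CPM in the NC libraries, on 0 to 15 counts a library, with a log2 fold change of -1.43 ± 1.11 that ran from -3.02 without implant 3 to -0.84 without implant 2.

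Fractalkine, Cx3cl1, is a membrane-bound ligand of endothelium and neurons. It stood at 22.3, 26.3 and 17.98 CPM in the implant libraries and at 26.5, 23.9 and 23.4 CPM in the NC libraries, among the steadiest members, and its log2 fold change of -0.15 ± 0.17 had an interval of -0.55 to 0.26. Its receptor on monocytes and macrophages, Cx3cr1, stood at 37.4, 30.7 and 22.2 CPM in the implant libraries and at 32.6, 30.6 and 6.14 CPM in the NC libraries. NC 3 lay apart at 6.14 CPM, under every other library, and the log2 fold change of 0.38 ± 0.59 was -0.075 without NC 3. With haemoglobin level as a covariate it was 1.57, at an unadjusted edgeR p of 0.000188 and an adjusted p of 0.414. Xcr1, a receptor of cross-presenting dendritic cells, stood at 1.46, 3.69 and 1.36 CPM in the implant libraries and at 6.07, 1.45 and 1.45 CPM in the NC libraries. It was highest in NC 1, and its log2 fold change of -0.46 ± 0.74 was 0.60 without that library. Xcl1, its ligand, had 4, 21 and 5 counts in the implant libraries and 18, 4 and 3 in the NC libraries and was not tested.

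Cxcl12 retains progenitors and leukocytes through Cxcr4 and is removed by the atypical receptor Ackr3. It stood at 397, 679.5 and 357 CPM in the implant libraries and at 498, 271 and 559.5 CPM in the NC libraries. The lowest library, NC 2, and the highest, implant 2, differed 2.505-fold, and the log2 fold change was 0.11 ± 0.37 (interval -0.79 to 1.01). Cxcr4 stood at 19.6, 16.1 and 12.7 CPM in the implant libraries and at 9.501, 14.3 and 17.3 CPM in the NC libraries, with a log2 fold change of 0.24 ± 0.27 and NC 1 as its lowest library. Ackr3 stood at 95.4, 84.2 and 50.6 CPM in the implant libraries and at 62.6, 72.7 and 137 CPM in the NC libraries. It was highest in NC 3, and its log2 fold change of -0.24 ± 0.37 was 0.18 without that library.

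Ccl21 is made by lymphatic endothelium and guides dendritic and T cells that carry Ccr7. It stood at 158, 300.5 and 21.8 CPM in the implant libraries and at 131, 26.1 and 247 CPM in the NC libraries, a span of 13.7-fold. Implant 3 and NC 2 were low and the other 4 libraries held 131 CPM or more, so both groups held low and high libraries, and the log2 fold change was 0.25 ± 1.06 (interval -2.33 to 2.83). Ccl19, the other ligand of Ccr7, had 3 to 26 counts a library, lowest in implant 3 and NC 2 likewise, and a log2 fold change of -0.31 ± 0.85. Ccr7 stood at 2.22, 4.89 and 2.12 CPM in the implant libraries and at 2.85, 3.29 and 9.904 CPM in the NC libraries. The highest library was NC 3, and the log2 fold change of -0.79 ± 0.61 was 0.0020 without it.

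Cxcl13, the ligand that gathers B cells in follicles through Cxcr5, stood at 26.3, 71.3 and 120.5 CPM in the implant libraries and at 59.1, 82.7 and 146 CPM in the NC libraries. Implant 1 was lowest and NC 3 highest, with a log2 fold change of -0.40 ± 0.59 that was 0.011 without implant 1 and 0.040 without NC 3. Cxcr5 stood at 4.04, 3.69 and 2.24 CPM in the implant libraries and at 2.96, 1.27 and 4.84 CPM in the NC libraries, at a log2 fold change of 0.14 ± 0.53. B and plasma cell markers summed to 30.9, 40.6 and 50.2 CPM in the implant libraries and 50.3, 9.83 and 42.8 CPM in the NC libraries. Jchain, of plasma cells, made up 59.4% to 94.5% of that sum, and the other 4 genes summed to 8.55, 9.13 and 2.77 CPM in the implant libraries and 8.72, 3.99 and 12.4 CPM in the NC libraries. Their part in Cxcl13 and Cxcr5 was not tested.

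Eotaxin, Ccl11, which attracts eosinophils through Ccr3, stood at 45.1, 193 and 49.6 CPM in the implant libraries and at 83.8, 21.4 and 67.1 CPM in the NC libraries. Implant 2 stood above all other libraries and NC 2 below them, and the log2 fold change of 0.74 ± 0.74 was -0.28 without implant 2. Ccl24, another ligand of Ccr3, stood at 34.6, 25.9 and 42.3 CPM in the implant libraries and at 26.01, 22.7 and 42.5 CPM in the NC libraries, with a log2 fold change of 0.17 ± 0.30 and no library apart. Ccr3 stood at 2.22, 4.13 and 3.36 CPM in the implant libraries and at 2.08, 2.77 and 0.651 CPM in the NC libraries. It was lowest in NC 3 and had a log2 fold change of 0.81 ± 0.56, which was 0.42 without NC 3 and 1.69 with haemoglobin level as a covariate. The eosinophil granule genes Epx and Prg2 had 2 and 3 counts over all 6 libraries, near 0. The other eosinophil markers listed, Il5ra and Siglec5, had 20 and 1100 counts. Siglec5 stood at 11.4, 19.45 and 7.9 CPM in the implant libraries and at 12.7, 7.11 and 3.325 CPM in the NC libraries. The part of eosinophils in these values was not tested. Ccl20 (2 to 17 counts a library) and its receptor Ccr6 (19 to 58) had log2 fold changes of -0.26 ± 0.93 and 0.020 ± 0.49, and Ccl17, not tested, had 27, 10 and 1 counts in the implant libraries and 4, 7 and 20 in the NC libraries.

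Cxcl14, a ligand of epithelia and stroma, stood at 30.7, 40.9 and 11.2 CPM in the implant libraries and at 10.02, 11.6 and 24.4 CPM in the NC libraries. Implant 1 and implant 2 were above every NC library and implant 3 was within their range, with a log2 fold change of 0.85 ± 0.55 that ran from 0.45 without implant 2 to 1.35 without NC 3. Cxcl16, a membrane-bound ligand that also takes up oxidised lipoprotein, stood at 52.8, 41.95 and 45.2 CPM in the implant libraries and at 52.8, 42.8 and 23.9 CPM in the NC libraries. It was lowest in NC 3, and without that library its log2 fold change of 0.23 ± 0.29 was -0.038. Its deposited counts are fractional in all 6 libraries and sum to whole numbers with those of Zmynd15, whose gene overlaps it in GRCr8, so the split of reads between them is uncertain. Cxcr6, its receptor on T cells, stood at 5.62, 7.61 and 3.71 CPM in the implant libraries and at 5.14, 3.81 and 2.17 CPM in the NC libraries, at a log2 fold change of 0.60 ± 0.42 that ran from 0.33 without implant 2 to 0.93 without NC 1. Ccl27 and Ccr10, a ligand and receptor of skin, had 8 to 27 and 4 to 25 counts a library, with log2 fold changes of -0.13 ± 0.53 and -0.098 ± 0.81. Ccr9, not tested, had at most 21 counts in a library, in part shared with its neighbour Fyco1.

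The atypical receptor Ackr1 binds many inflammatory chemokines on venules and red cells. It stood at 39.8, 47.8 and 36.9 CPM in the implant libraries and at 23.1, 16.1 and 52.8 CPM in the NC libraries. NC 1 and NC 2, the libraries with least haemoglobin, were lowest and NC 3, with most, was highest. The log2 fold change was 0.44 ± 0.44, and it was 0.097 with haemoglobin level as a covariate and 1.08 without NC 3. Ackr2, a scavenger of inflammatory CC ligands, stood at 7.38, 10.3 and 2.54 CPM in the implant libraries and at 5.14, 3.005 and 14.02 CPM in the NC libraries, at a log2 fold change of -0.13 ± 0.72, and its counts in 2 libraries are shared with Cyp8b1. Ackr4, which removes Ccl19 and Ccl21, stood at 11.7, 13.1 and 5.96 CPM in the implant libraries and at 9.61, 3.699 and 16.2 CPM in the NC libraries, at 0.064 ± 0.56. Like Ccl21, Ackr2 and Ackr4 were lowest in implant 3 and NC 2. Endothelial markers summed to 1174, 1379 and 1047 CPM in the implant libraries and 1116, 718 and 1671 CPM in the NC libraries, lowest in those same libraries, and their part in these values was not tested.

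**Figure D3:**
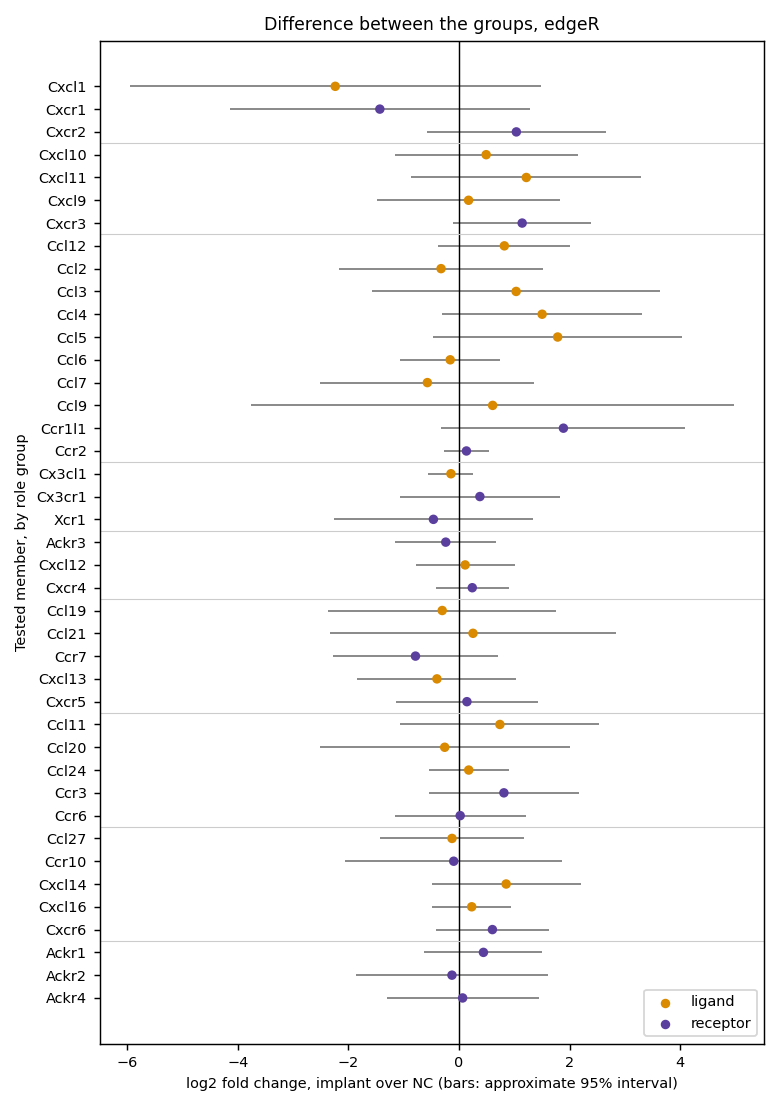
Log2 fold change, implant over NC, of 41 of the 42 tested members from edgeR (horizontal axis), with 95% intervals as bars, ligands in orange and receptors in purple, in the role groups of the text. Every interval includes 0, and that of Ccl9 runs from -3.76 to 4.97.

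Genes that act with chemokines gave the same count of calls. Of 26 tested genes of receptor signalling and migration, 0 were called higher and 0 lower, 20 were positive and the median log2 fold change was 0.23. Among the smallest unadjusted p were those of the Src family kinase Fgr (0.77 ± 0.23) and of Vav1 (0.37 ± 0.15), a signalling protein of blood cells, at an adjusted edgeR p of 1. Fgr stood at 33.4, 30.7 and 26.4 CPM in the implant libraries and at 13.9, 15.7 and 23.5 CPM in the NC libraries. Its groups did not overlap, against 5.69% of all genes, but it was picked from its list for a small p. Of 18 tested inducers and inducible regulators of chemokine transcription, 0 were called, 10 were positive and the median was 0.03, with Irf1 (0.25 ± 0.13), Il6 and Tnf (0.95 ± 0.66, and 0.23 without implant 3) first by unadjusted p. Of 22 tested other chemoattractants and adhesion genes, 0 were called, 19 were positive and the median was 0.17, with Itgal (0.68 ± 0.20), Itgb2 (0.84 ± 0.48) and C5ar2 (0.35 ± 0.20) first. Without NC 2 the folds of Itgb2 and C5ar2 were 1.31 and 0.20, and without NC 3 they were 0.70 and 0.57. Pan-leukocyte markers, 4 genes, summed to 359, 383 and 370.5 CPM in the implant libraries and 277, 287 and 335 CPM in the NC libraries. In this sum every implant library lay above every NC library, while over all genes the groups did not overlap for 5.69%. Of the 4 genes, Coro1a did overlap, at 50.6 CPM in implant 3 and 51.9 CPM in NC 3. All 4 had an adjusted edgeR p of 1.

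**Figure D4:**
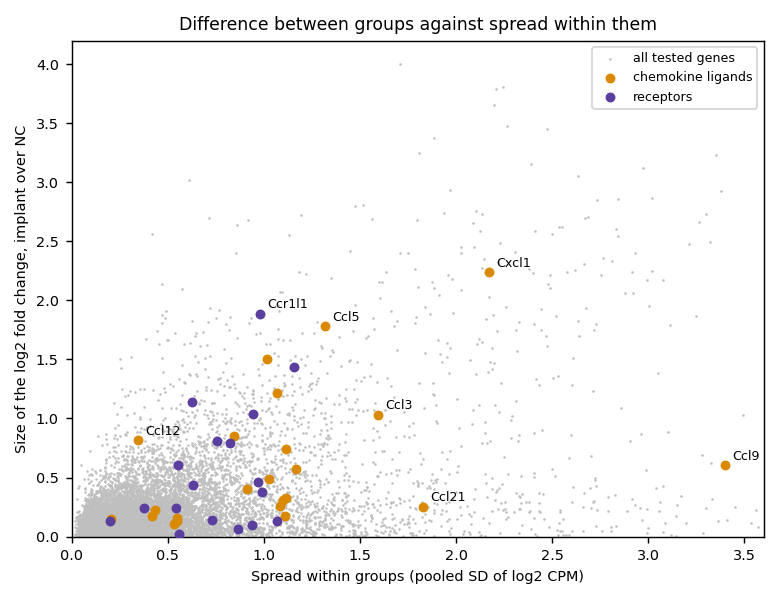
Size of the log2 fold change, implant over NC (vertical axis), against the pooled SD of log2 CPM within the groups (horizontal axis), for chemokine ligands (orange) and receptors (purple), 41 members in all, and all tested genes (grey, of which 4 lie outside the axes). For 29 of the 42 members the group difference was smaller than that SD, against 80.7% of all genes. Ccl9 lies the farthest to the right of the members.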

How the data were processed

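Per the labels' protocols, poly(A) RNA was made into NEBNext Ultra libraries, which keep no strand, and sequenced on a NovaSeq6000. The authors deposited expected counts (estimated counts per gene, some not whole), with no normalization visible in their totals. Bowtie2 2.2.8, StringTie 1.3.1, HISAT2 and DESeq2 appear in the submitters' processing notes, with no roles. Which tool counted reads, and on which build, is not given. Counts were rounded. Columns named Con and Gel_HA-Mg were matched to the NC and GDNF-Gel/HA-Mg titles with the same number.

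Genes passing filterByExpr (13999) were TMM-scaled and compared with edgeR 4.0.16 (R 4.3.3, quasi-likelihood, two-sided, Benjamini-Hochberg over all genes). The standard error is the log2 fold change over the root of F, and 95% intervals use the test's degrees of freedom. CPM uses the scaled library size. Wilson 95% intervals of shares were at most 0.0401 percentage points wide and, like limits for a count of 0 (3 counts), cover counting error only. All library pairs differed beyond sampling noise (chi-square over genes).

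Members and lists were chosen with earlier results of these data known. Every member is named except 1, which is counted but not reported here, with full statistics for the 10 of highest mean CPM and the 5 per direction with the smallest unadjusted p, and up to 3 genes per pathway list. Alternatives were RLE and upper-quartile scaling, haemoglobin genes left out, DESeq2 1.42.0, limma-voom (limma 3.58.1), other filters, the replicate number as a block, haemoglobin as a covariate, and each library left out. Figures used matplotlib 3.10.9, and promoters are RefSeq's (GRCr8).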

Additional observations from a re-analysis of the deposited data

How the results depend on the processing

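No tested member was called under any of the 15 alternatives (smallest adjusted p 0.414, for Cx3cr1 with haemoglobin as a covariate). Over all genes, DESeq2 called 11 where edgeR called 0, and the other alternatives called 0. The members' median log2 fold change ran from 0.056 to 0.43 when a library was left out. With the replicate block, the median was 0.22 and 0 genes were called. Libraries of the same number did not deviate together (correlations 0.10, -0.72 and 0.06), so the numbers were not taken to pair samples. Unadjusted p under 0.05 was reached by 5 members with the haemoglobin covariate (Cx3cr1 1.57, Ccr7 -1.19, Ccr3 1.69, Cxcl16 0.67 and Cxcr6 1.06 on the log2 scale), where 8.74% of all genes reached it. It was reached by 4 without implant 3 (1.49% of all genes), 2 without NC 1 (2%), 3 without NC 3 (3.92%), 1 with DESeq2 (2.34%) and 1 with limma-voom (1.61%). The sign of the log2 fold change held in all fits for 18 of the 42 members. For 24 it changed when a library was left out, with ranges of Cxcl1 -3.33 to 1.13, Cxcl9 -0.27 to 0.53, Ccl2 -1.08 to 0.62, Ccl6 -0.52 to 0.10, Ccl7 -1.02 to 0.81, Ccl9 -0.19 to 4.17, Cx3cr1 -0.075 to 0.73, Xcr1 -1.09 to 0.60, Ackr3 -0.44 to 0.18, Cxcl12 -0.23 to 0.31, Ccl19 -0.95 to 0.34, Ccl21 -0.59 to 1.01, Ccr7 -1.29 to 0.0020, Cxcl13 -0.98 to 0.040, Cxcr5 -0.23 to 0.64, Ccl11 -0.28 to 1.13, Ccl20 -0.70 to 0.20, Ccl24 -0.0075 to 0.49, Ccr6 -0.39 to 0.49, Ccl27 -0.37 to 0.41, Ccr10 -1.15 to 0.48, Cxcl16 -0.038 to 0.50, Ackr2 -0.57 to 0.72 and Ackr4 -0.33 to 0.61. It also changed with the haemoglobin covariate for Xcr1 0.13, Cxcl12 -0.078, Ccl21 -0.068, Cxcr5 -0.12, Ccl24 -0.071, Ccl27 0.26, Ccr10 0.17 and Ackr4 -0.22, with limma-voom for Ccl7 0.059, Ccr6 -0.00028 and Ackr2 0.048 and with the replicate block for Ackr2 0.035. The cause was not tested. Of members whose sign held, ranges with a library left out that are not given above were Cxcr2 0.67 to 2.11, Ccr2 0.023 to 0.29, Cx3cl1 -0.28 to -0.018, Cxcr4 0.045 to 0.44 and Ackr1 0.13 to 1.08. Members with few counts a library, such as Ccl12, Cxcr1 and Ccr1l1, are limited by depth as well as by spread.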

Other observations

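Leukocyte integrins let cells cross endothelium and hold to matrix. Of their genes in the lists, 3 were highest in the libraries highest in Ccl9, while Itgal and Itgax were not. Itgb2, the common chain of leukocyte integrins, stood at 140.4, 61.02 and 164 CPM in the implant libraries and at 44.2, 106 and 53.9 CPM in the NC libraries. Itga4 stood at 28.3, 16.7 and 25.6 CPM in the implant libraries and at 13.7, 24.4 and 9.62 CPM in the NC libraries, and Itgam, a chain of the macrophage integrin, stood at 73.2, 39.01 and 78.5 CPM in the implant libraries and at 32.9, 53.1 and 36.6 CPM in the NC libraries. Itgal stood at 36.7, 42.4 and 32.8 CPM in the implant libraries and at 29.6, 19.5 and 20.7 CPM in the NC libraries, highest in implant 2 and lowest in NC 2. Itgax stood at 32.4, 24.9 and 33.5 CPM in the implant libraries and at 26.3, 18.7 and 7.66 CPM in the NC libraries, with NC 2 below NC 1. Itgb2, Itga4 and Itgam were highest in implant 1, implant 3 and NC 2, and were chosen for mention after their values were seen. Their log2 fold changes were 0.84 ± 0.48, 0.56 ± 0.38 and 0.64 ± 0.32, at an adjusted edgeR p of 1.

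Pf4, a platelet and macrophage chemokine whose symbol lies outside the pattern used here, stood at 81.9, 119.9 and 82.5 CPM in the implant libraries and at 49.1, 55.1 and 160.4 CPM in the NC libraries. It was highest in NC 3. Dock2, a migration gene of leukocytes, is listed at 0 in all 6 libraries, although other leukocyte genes such as Ptprc (76.5 CPM or more) are well covered.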
